A study of Mus musculus with 10 samples.

Results

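The C-type protocadherins are the isoforms that close the alpha and gamma arrays of the clustered protocadherin locus. The members were taken by gene symbol and are Pcdhac1 and Pcdhac2 of the alpha array and Pcdhgc3, Pcdhgc4 and Pcdhgc5 of the gamma array, 5 of the 52632 genes in the count table. All 5 were among the 17110 genes with enough counts to be tested. They were compared with 12 alternate alpha, 22 beta, 12 gamma-A and 7 gamma-B genes of the same locus.

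Clustered protocadherins are cell-surface adhesion proteins of the cadherin superfamily that bind the same isoform on a neighbouring cell and help neurons tell their own processes from those of others. Each alpha or gamma isoform joins its own variable exon, which encodes the extracellular and transmembrane parts, to a few constant exons shared across the array. Neurons are known to choose the alternate isoforms at random from promoters bound by CTCF, whereas the C-type isoforms are expressed without that random choice. SMCHD1 is a chromatin protein with an ATPase domain that takes part in silencing the inactive X chromosome and several gene clusters, the clustered protocadherins among them.

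Cortical neural stem cells were profiled by sequencing of their poly(A) RNA, each culture grown as an adherent layer on laminin from the cortex of 1 mouse embryo at embryonic day 14.5, with 20 ng/mL EGF and 20 ng/mL FGF. Embryos carried 1 Smchd1 allele with the E147A mutation and a GFP tag, or 2 untagged wild-type alleles (+/+). The mutation and the tag therefore cannot be told apart. The groups were female E147A/+ (n = 2, litters 1 and 2), female +/+ (n = 2, both litter 3), male E147A/+ (n = 3, litters 1, 1 and 3) and male +/+ (n = 3, litters 4, 1 and 3). Every female, in both genotypes, also carried the XistdeltaA allele, so sex and that allele are 1 contrast. Per the labels all embryos were F1 offspring of a Castaneus (Cast) father and a mother that was itself a cross of 129 and C57. Genotype and litter cannot be told apart in females, and the mutation is carried in heterozygous form in every mutant culture.

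Total counts per library ranged from 20648916 to 44519020. Smchd1 was 94.2 to 128 CPM (counts scaled to library size, with TMM factors) in E147A/+ and 122 to 192 CPM in +/+. In the allelic counts of the females its Cast share was 0.379% and 0.111% in E147A/+ and 48.8% and 47.6% in +/+, so the mutant females had almost no Cast counts of this gene. Neural stem cell markers were abundant (12 genes, summed level 5418 to 7598 CPM), the sum of 12 neuron markers (616 to 1036 CPM) was mostly Map2 (477 to 982 CPM), with the 11 others each at most 36.6 CPM, such as Tubb3 at 5.27 to 30.1 CPM, and microglia markers summed to at most 2.80 CPM. The 3 serotonergic markers summed to at most 0.574 CPM, with Fev at 0 in every library. Oligodendrocyte lineage markers (7 genes) summed to 85.4 to 130 CPM in female E147A/+, 178 to 237 in female +/+, 132 to 186 in male E147A/+ and 104 to 453 in male +/+, and Cspg4 made up most of these sums (61.2 to 322 CPM). Of the 6 tested, 5 had an estimate below 0 over both sexes (52% of all genes), 3 of them at unadjusted p under 0.05 (5.90% of all genes), and 1 was called lower (0.0818% of all genes were called). That gene was Gpr17, with a mean of 0.0560 CPM in E147A/+ and 2.16 CPM in +/+ (edgeR adjusted p = 0.0249). Pdgfra had means of 13.2 and 49.3 CPM and Sox10 of 4.42 and 16.3 CPM, and neither passed the threshold. The part of these cell types in the results below was not tested. In bulk RNA, fewer cells of a type and less RNA per cell cannot be told apart.

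All 5 genes lie on the plus strand of chromosome 18 (GRCm38, GENCODE M21). Pcdhac1 (ENSMUSG00000103255) spans chr18:37090013-37187657 and Pcdhac2 (ENSMUSG00000102697) spans chr18:37143503-37187657. Pcdhgc3 (ENSMUSG00000102918) spans chr18:37806364-37841873, Pcdhgc4 (ENSMUSG00000023036) spans chr18:37815079-37841873 and Pcdhgc5 (ENSMUSG00000102543) spans chr18:37819513-37841873. In each array the genes end at the same base because they share the constant exons, which measure 59, 89 and 2712 bp in the alpha array and 59, 89 and 1971 bp in the gamma array. The exonic sequence that belongs to 1 gene alone measured 2559 bp for Pcdhac1, 3028 bp for Pcdhac2, 3380 bp for Pcdhgc3, 3477 bp for Pcdhgc4 and 4606 bp for Pcdhgc5. Reads in the constant exons were not counted once for every gene of an array, since Pcdha1 had 0 counts in female +/+ replicate 1 where Pcdhac2 had 310. Of the own sequence of Pcdhgc3, 1559 bp lie opposite the antisense gene BC037039. The libraries were stranded, but the use of strand in counting is not given in the sources used here, so reads of Pcdhgc3 and BC037039 may not be separated.

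Per length, Pcdhgc3 was the highest C-type gene by a wide margin and Pcdhac1 the lowest. Levels per kb were obtained by dividing CPM by the length of each gene's own exonic sequence. Pcdhgc3, whose protein is known to bind Axin1 and to promote dendrite branching, had a mean level of 98.6 ± 18.1 CPM per kb (SD, n = 10 libraries). Pcdhac2, known for its part in spacing the axons of serotonergic neurons, had 2.45 ± 1.07 CPM per kb. Pcdhgc4, the gamma isoform known to be needed for neuron survival, had 1.58 ± 0.559 CPM per kb. Pcdhgc5, which binds GABA-A receptors at synapses, had 1.05 ± 0.412 CPM per kb. Pcdhac1, the other C-type isoform of the alpha array, had 0.172 ± 0.122 CPM per kb.

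The top and the bottom of that order were the same in every culture. Pcdhgc3 was first and Pcdhac1 last in 10 of 10 libraries. The median ratio of Pcdhgc3 to Pcdhgc4 within a library was 69.5 on the per kb scale. Neighbours in the middle were close: Pcdhac2 was above Pcdhgc4 in 9 of 10 libraries and Pcdhgc4 above Pcdhgc5 in 8 of 10, and the means of neighbours differed by less than 1 SD of the higher gene. The place of Pcdhgc5 depends on its length, since annotated transcripts of it read on past the variable exon. With the longest exon of each gene that no other gene overlaps (2622 bp for Pcdhgc5 and 3100 bp for Pcdhgc4), an alternative added after the data were seen, Pcdhgc5 had 1.85 ± 0.723 and Pcdhgc4 1.77 ± 0.627 CPM per kb, and Pcdhgc4 was above Pcdhgc5 in 6 of 10 libraries.

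Against the rest of the locus, Pcdhgc3 stood above every other clustered protocadherin in mean level per kb. The highest mean levels per kb over the 5 +/+ libraries were 106 for Pcdhgc3, 5.46 for Pcdhga11 among the gamma-A genes, 4.15 for Pcdhgb8 among the gamma-B genes, 1.63 for Pcdhb20 among the beta genes and 0.281 for Pcdha12 among the alternate alpha genes. In +/+, Pcdhac2 was also above every alternate alpha and every beta gene, at 3.73 CPM per kb in females and 2.63 in males. In E147A/+ it had 1.48 CPM per kb in females and 2.06 in males, where the highest alternate alpha gene had 1.85 and the highest beta gene 4.07. Pcdhgc4, at 2.05 in female +/+ and 1.92 in male +/+, and Pcdhgc5, at 1.17 and 1.15, were below the gamma-A median of 2.31 and the gamma-B median of 2.61 in +/+. Pcdhac1 had 0.203 CPM per kb in +/+, against an alternate alpha median of 0.0626, and 0.142 in E147A/+, against 0.781.

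**Figure D1:**
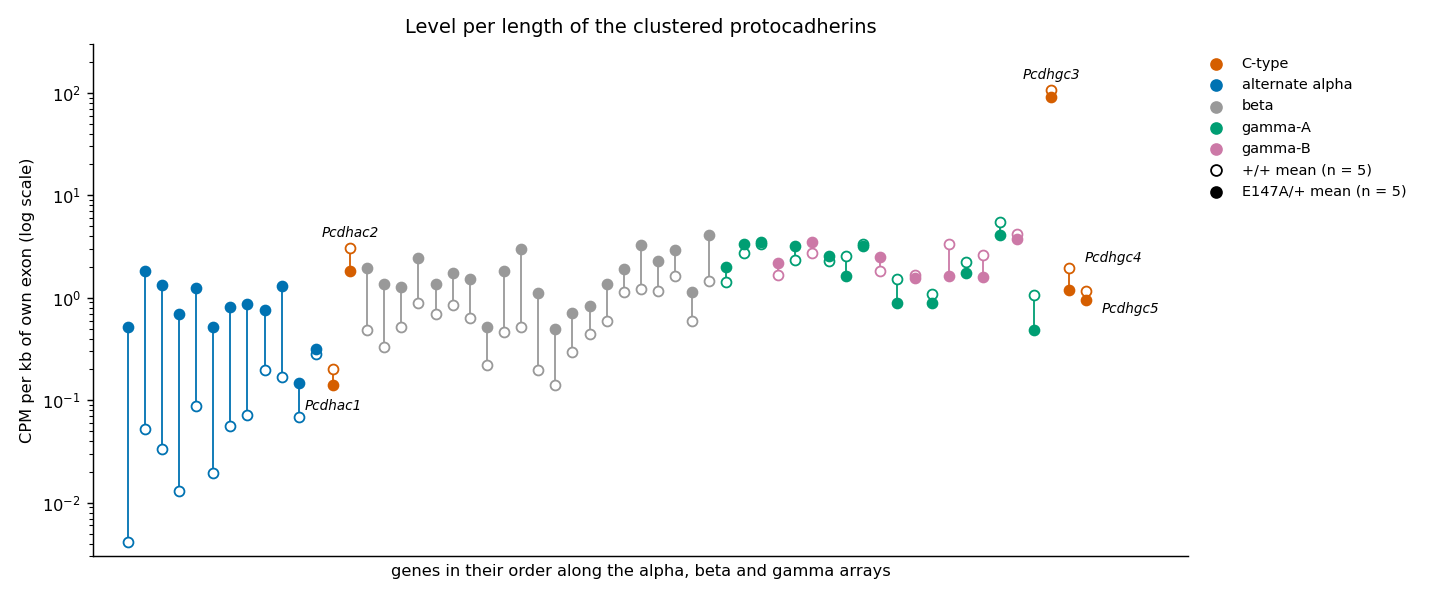
Mean level per kb of own exonic sequence (log scale) of each clustered protocadherin, in the order of the genes along the locus, with open points for the 5 +/+ libraries and filled points for the 5 E147A/+ libraries. Pcdhgc3 stands far above the rest at 106 CPM per kb in +/+, the C-type points of E147A/+ lie slightly below those of +/+, and the alternate alpha and beta points of E147A/+ lie above those of +/+. Pcdhb1, at 0 in +/+, is not drawn.

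The level of each member was next followed across the 4 groups. Pcdhac2 was low in all but 1 of the E147A/+ cultures. Its level was 4.78 and 4.16 CPM in female E147A/+ replicates 1 and 2, and 9.87 and 12.7 CPM in female +/+ replicates 1 and 2. Both mutant females were below both +/+ females. In males it was 4.26, 4.25 and 10.2 CPM in E147A/+ replicates 1 to 3, and 11.1, 6.71 and 6.11 CPM in +/+ replicates 1 to 3. The male groups overlapped, because E147A/+ replicate 3 of litter 3 exceeded 2 of the 3 +/+ males.

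Pcdhac1 was close to the limit of detection, for which 3 counts were taken. It had 7 and 19 counts in female E147A/+ (0.162 and 0.439 CPM) and 25 and 17 counts in female +/+ (0.796 and 0.437 CPM). The female groups overlapped by a narrow margin. In males it had 3, 3 and 31 counts in E147A/+ (0.0804, 0.100 and 1.03 CPM) and 16, 5 and 17 counts in +/+ (0.552, 0.235 and 0.574 CPM). The highest library of all 10, male E147A/+ replicate 3, and the 2 lowest, male E147A/+ replicates 1 and 2, belong to the same group.

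Pcdhgc4 was lower in every E147A/+ culture than in any +/+ culture of the same sex. Its level was 4.44 and 4.02 CPM in female E147A/+ and 9.08 and 5.19 CPM in female +/+. In males it was 4.53, 3.82 and 3.82 CPM in E147A/+ and 4.90, 6.48 and 8.64 CPM in +/+. The 5 mutant cultures were within a narrow band of 3.82 to 4.53 CPM, while the +/+ cultures ranged from 4.90 to 9.08 CPM. Of all genes tested, 1.27% had every E147A/+ library below every +/+ library in both sexes, so Pcdhgc4 was 1 of 217 such genes.

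Pcdhgc3 and Pcdhgc5 showed no such separation. Pcdhgc3 was 317 and 363 CPM in female E147A/+ and 451 and 296 CPM in female +/+, with the mutant females between the +/+ females. In males Pcdhgc3 was 331, 250 and 271 CPM in E147A/+ and 341, 302 and 408 CPM in +/+, and E147A/+ replicate 1 was above +/+ replicate 2. Pcdhgc5 was 5.17 and 4.28 CPM in female E147A/+ and 7.04 and 3.78 CPM in female +/+, again with the mutant females in between. In males Pcdhgc5 was 2.81, 2.51 and 7.01 CPM in E147A/+ and 7.66, 2.96 and 5.30 CPM in +/+, a spread of more than the difference between the group means of 4.11 and 5.30 CPM.

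**Figure D2:**
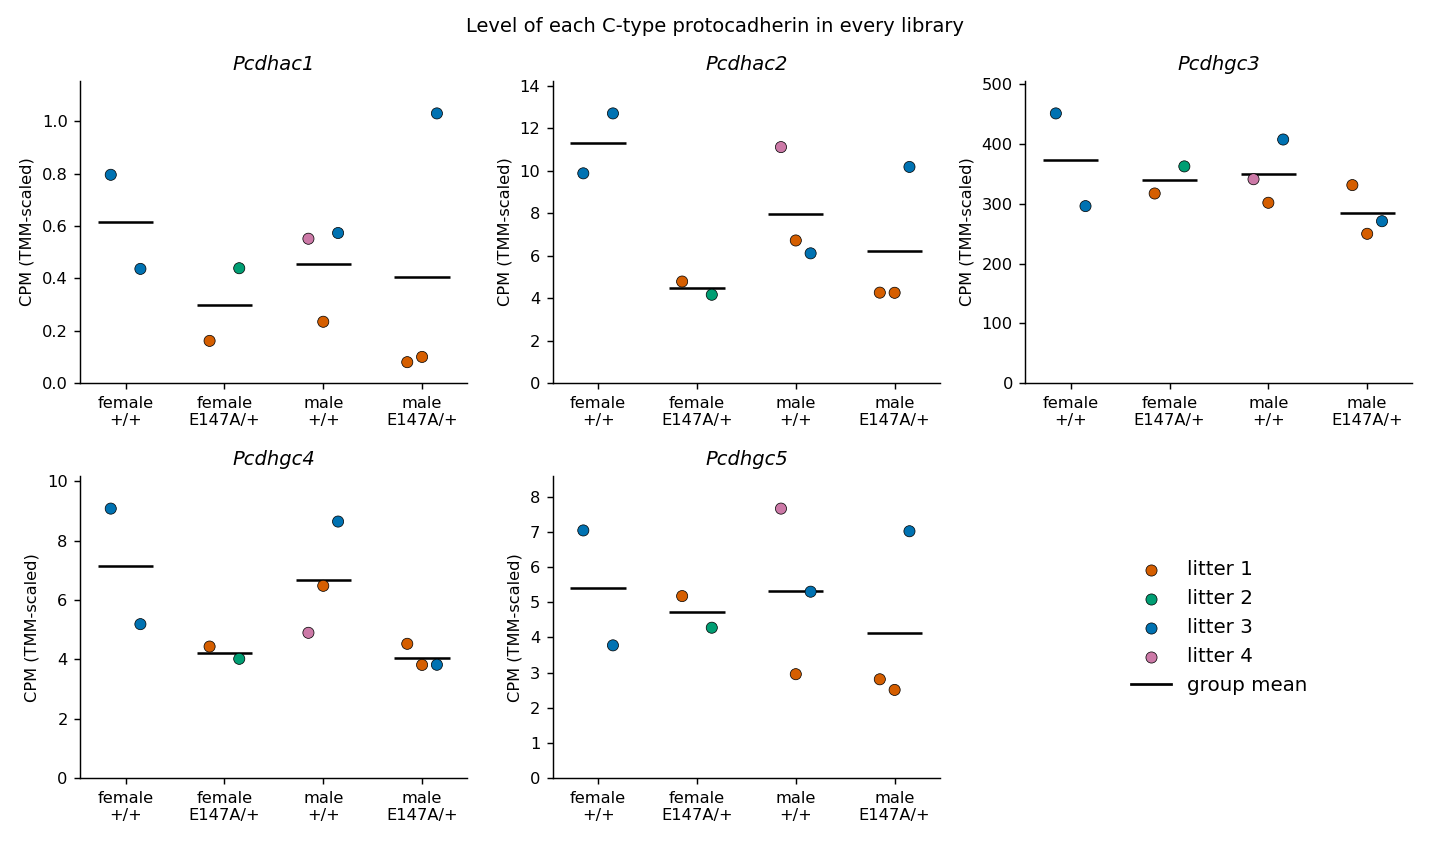
Level in TMM-scaled CPM of each C-type gene in the 10 libraries, grouped by sex and genotype, with points coloured by litter and a line at each group mean. For Pcdhgc4 the E147A/+ points lie at 3.82 to 4.53 CPM, below the +/+ points of their sex, and for Pcdhac1 the 4 libraries of litter 1 are the 4 lowest at 0.0804 to 0.235 CPM.

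The comparison of E147A/+ with +/+ asks whether the mutation in the ATPase domain, on 1 of the alleles, alters expression. None of the 5 C-type genes passed an adjusted p of 0.05 over both sexes in edgeR's quasi-likelihood test with Benjamini-Hochberg adjustment, where 14 of 17110 genes (0.0818%) passed, nor did any in DESeq2 or limma-voom. Pcdhgc4 had a log2 fold change of -0.74 (SE 0.26, 95% interval -1.31 to -0.16, unadjusted p = 0.0171, edgeR adjusted p = 0.750). Pcdhac2 had a log2 fold change of -0.85 (SE 0.32, 95% interval -1.56 to -0.14, unadjusted p = 0.0241, edgeR adjusted p = 0.786), and -0.31 with litter as a covariate. These 2 members had unadjusted p-values under 0.05, as had 5.90% of all genes, and both missed the threshold after adjustment.

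For the other members the estimate was small or the interval wide. Pcdhgc3, with at least 6431 counts per library, had the narrowest interval, with a log2 fold change of -0.22 (SE 0.16, 95% interval -0.58 to 0.14, edgeR adjusted p = 0.824). Over the alternatives tried it ranged from -0.36 to -0.04. Pcdhgc5 had -0.28 (SE 0.39, 95% interval -1.16 to 0.59, edgeR adjusted p = 0.886), and -0.59 to 0.61 over the alternatives tried. Pcdhac1 had -0.61 (SE 0.73, 95% interval -2.24 to 1.03, edgeR adjusted p = 0.871), at only 3 to 31 counts per library, and -1.66 to 0.26 over the alternatives. Both were lowest without male E147A/+ replicate 3 and highest with litters 1 and 3 alone and litter as a covariate.

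The estimates of all 5 members were below 0 in each sex taken alone, as were 51.2% of all genes in females and 52.7% in males (52% over both sexes). In females the log2 fold changes were -1.33 for Pcdhac2, -1.02 for Pcdhac1, -0.75 for Pcdhgc4, -0.19 for Pcdhgc5 and -0.14 for Pcdhgc3. In males they were -0.72 for Pcdhgc4, -0.37 for Pcdhgc5, -0.36 for Pcdhac2, -0.30 for Pcdhgc3 and -0.19 for Pcdhac1. With litter as a covariate 3 of these 10 estimates turned, to 0.68 for Pcdhac1 and 1.10 for Pcdhgc5 in females and 0.091 for Pcdhgc5 in males. Female E147A/+ replicate 2 is the only library of litter 2, so it does not inform that fit. The female estimates there compare E147A/+ replicate 1 with the litter 3 +/+ females, and the litter difference is taken from males. Without female +/+ replicate 1 the estimates in females were 0.19 for Pcdhgc3 and 0.32 for Pcdhgc5, and in males Pcdhac1 was 0.30 without E147A/+ replicate 1 and 0.26 without E147A/+ replicate 2. Over the alternatives tried, Pcdhac2 ranged from -1.51 to -0.55 in females and from -0.91 to -0.041 in males. Pcdhgc4 ranged from -1.10 to -0.30 in females and from -0.90 to -0.49 in males. Pcdhgc3 ranged from -0.41 to 0.19 in females and from -0.42 to -0.16 in males. Pcdhac1 ranged from -1.88 to 0.68 in females, lowest without E147A/+ replicate 2, and from -2.31 to 0.30 in males. Pcdhgc5 ranged from -0.57 to 1.10 in females, lowest without +/+ replicate 2, and from -0.996 to 0.091 in males. In males both were lowest without E147A/+ replicate 3. Of all genes tested, 31.9% were below 0 in both sexes, and the members are not independent of each other. No member passed in females (2 genes, 0.0117%, passed in edgeR; adjusted p 0.964 to 0.984 for the members) or in males (4 genes, 0.0234%; edgeR adjusted p 1.00 for all 5). Before adjustment the edgeR p was under 0.05 for 1 of 5 members in females, namely Pcdhac2, where 4.36% of all genes met that limit. In males it was under 0.05 for 0 of 5, where 3.44% of all genes met it. Both mutant females were below both +/+ females for Pcdhac2 and Pcdhgc4, as for 19.3% of all genes, and all mutant males were below all +/+ males for Pcdhgc4, as for 3.96%.

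The C-type estimates were below 0 with none past the threshold, whereas those of the alternate alpha and beta genes were above 0. The intervals of Pcdhac1, Pcdhgc3 and Pcdhgc5 included 0, and Pcdhac1 and Pcdhgc5 turned with litter as a covariate. Over both sexes the median log2 fold change was -0.61 for the 5 C-type genes, 3.79 for the 12 alternate alpha genes and 1.25 for the 21 beta genes tested, against -0.01 for all genes. In 4 of the alternate alpha genes a group had at most 3 counts, so their fitted values depend on the prior count, and with that group set at a floor of 3 counts, an alternative added after the data were seen, the median was 3.75. Of the alternate alpha genes 12 of 12 had an estimate above 0 and 3 passed the threshold, and of the beta genes 21 of 21 were above 0 and 4 passed. Of all genes 0.0818% passed, counting both directions. The symbol Pcdha11 repeats among the 12 alternate alpha rows. With litter as a covariate only 3 genes of all tested passed over both sexes, so most of these calls were lost in that fit. It has 3 residual degrees of freedom against 6 in the main fit. In males of litter 1 the alternate alpha genes summed to 15.4 and 18.6 CPM in E147A/+ and 2.30 in +/+, and the beta genes to 181, 162 and 43.8 CPM. In males of litter 3 the sums were 37.2 CPM in E147A/+ and 2.50 in +/+ for alternate alpha, and 171 and 86.4 CPM for beta. The gamma-A and gamma-B genes, which share their array with 3 of the C-type members, had medians of -0.19 and -0.06, with 7 of 12 and 4 of 7 below 0, where 52% of all genes were, and none past the threshold.

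**Figure D3:**
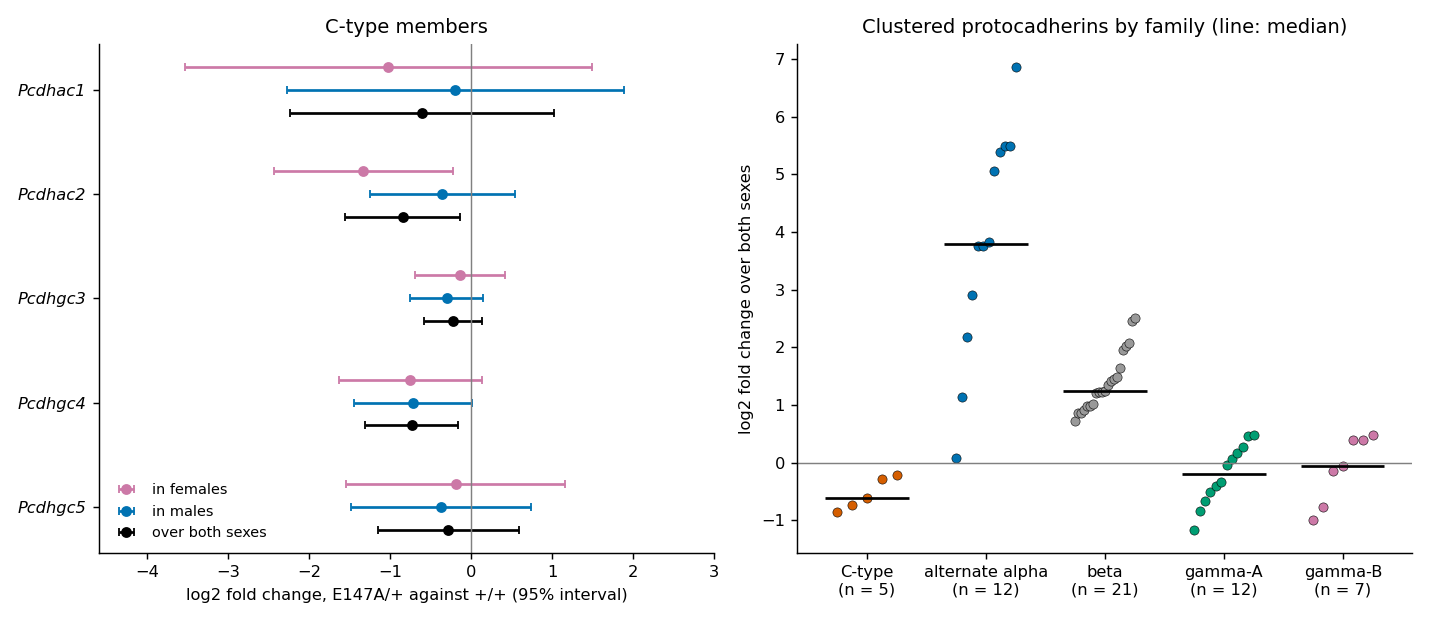
Left, log2 fold change of E147A/+ against +/+ with its 95% interval for each C-type gene, by sex and with the sexes combined. Right, the same with the sexes combined for each tested clustered protocadherin by family, with a line at the family median. The C-type estimates lie between -0.85 and -0.22 over both sexes, while the alternate alpha genes have a fitted median of 3.79 (3.75 with a floor of 3 counts) and the beta genes of 1.25.

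The make-up of the alpha array differed between genotypes, without overlap between their libraries. Pcdhac1 and Pcdhac2 together held 80.6% ± 0.177 of the alpha array counts in female +/+ (SD, n = 2) and 75.8% ± 3.32 in male +/+ (n = 3). They held 17.0% ± 5.63 in female E147A/+ (n = 2) and 21.3% ± 2.16 in male E147A/+ (n = 3). The lowest +/+ library, at 72.8%, was far above the highest E147A/+ library, at 23.1%. Most of that share was Pcdhac2, at 66.5% to 77.8% in +/+ and 11.8% to 21.5% in E147A/+. Pcdhac1 held a mean of 4.35% in female +/+ and 4.18% in male +/+, and of 0.966% in female E147A/+ and 0.991% in male E147A/+. In absolute terms the alternate alpha genes summed to 2.30 to 3.19 CPM in +/+ and 15.4 to 37.2 CPM in E147A/+, while Pcdhac1 and Pcdhac2 summed to 6.68 to 13.1 CPM in +/+ and 4.34 to 11.2 CPM in E147A/+.

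The summed C-type share of the gamma array overlapped between the genotypes in each sex. Pcdhgc3, Pcdhgc4 and Pcdhgc5 held 73.9% ± 1.02 of its counts in female +/+, 73.7% ± 0.0191 in female E147A/+, 73.9% ± 3.40 in male +/+ and 70.8% ± 2.01 in male E147A/+. Pcdhgc3 alone held 65.9% to 75.2% in the 10 libraries. Pcdhgc4 held 1.34% ± 0.107 in female +/+ and 0.899% ± 0.142 in female E147A/+, and 1.36% ± 0.329 in male +/+ and 0.987% ± 0.0704 in male E147A/+. In males those ranges overlapped, from 0.987% to 1.59% in +/+ and from 0.929% to 1.07% in E147A/+. Pcdhgc5 held 1.01% ± 0.126 in female +/+, 1.01% ± 0.224 in female E147A/+, 1.07% ± 0.434 in male +/+ and 1.00% ± 0.611 in male E147A/+, with single libraries from 0.601% to 1.70%.

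**Figure D4:**
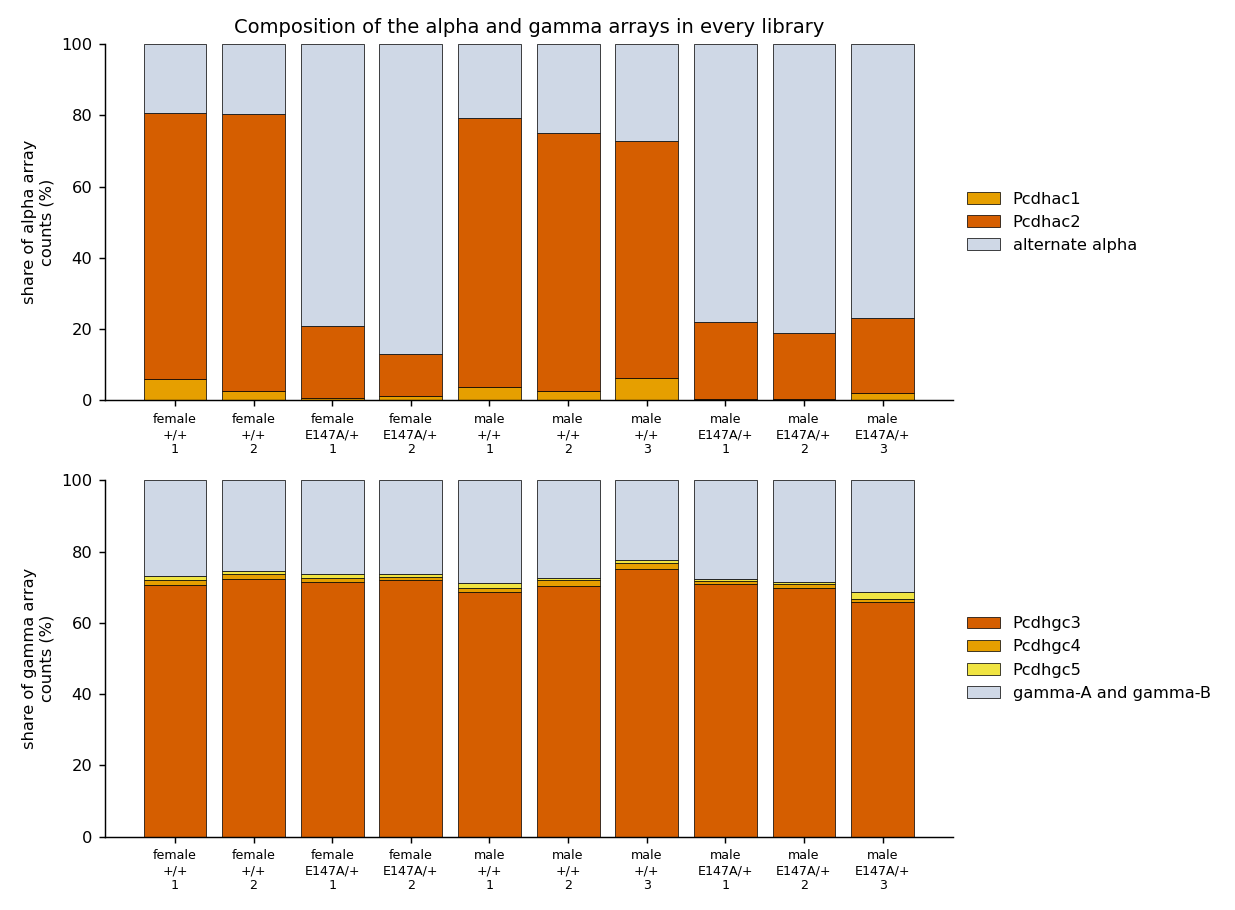
Share of alpha array counts (top) and gamma array counts (bottom) that each C-type gene and the alternate genes together took in each library. The C-type part of the alpha array is 72.8% to 80.7% in +/+ and 13.0% to 23.1% in E147A/+, and the C-type part of the gamma array is 68.5% to 77.7% in all 10 libraries.

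The genotype effect was not shown to differ between the sexes for any member. The female minus male difference in log2 fold change was -0.98 (SE 0.63) for Pcdhac2, -0.83 (SE 1.46) for Pcdhac1, 0.18 (SE 0.78) for Pcdhgc5, 0.17 (SE 0.32) for Pcdhgc3 and -0.04 (SE 0.51) for Pcdhgc4. All had an edgeR adjusted p of 0.999, and 0 of 17110 genes passed this interaction test in edgeR (314, or 1.84%, at unadjusted p under 0.05, and 0 of the 5 members) and 2 in DESeq2. Over the alternatives tried, the female minus male difference kept its direction for Pcdhac2 alone, at -1.29 to -0.43. It ranged from -1.72 to 1.28 for Pcdhac1, -0.20 to 1.01 for Pcdhgc5, -0.10 to 0.47 for Pcdhgc3 and -0.38 to 0.40 for Pcdhgc4. Between female and male +/+ cultures the log2 difference was 0.50 for Pcdhac2, 0.42 for Pcdhac1, 0.10 for Pcdhgc4, 0.09 for Pcdhgc3 and 0.02 for Pcdhgc5, with 0 of 5 past the threshold at an edgeR adjusted p of 0.999 and 5 of all genes (0.0292%) past it. At unadjusted p under 0.05 there were 0 of 5 members and 1.65% of all genes. Over the alternatives, this difference between female and male +/+ kept its direction for Pcdhac2 alone, at 0.31 to 0.82. It ranged from -0.50 to 0.79 for Pcdhac1, -0.34 to 0.44 for Pcdhgc4, -0.22 to 0.36 for Pcdhgc3 and -0.47 to 0.40 for Pcdhgc5.

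Levels of some members differed between litters, though none past the threshold, a comparison made after the values were seen. All 4 libraries of litter 1 had less Pcdhac1 (0.0804 to 0.235 CPM) than all 6 libraries of the other litters (0.437 to 1.03 CPM), a separation found for 3.69% of all genes. In a model with group and litter, litter 3 exceeded litter 1 by 2.58 on the log2 scale for Pcdhac1 (SE 0.74, edgeR adjusted p = 0.179) and by 1.16 for Pcdhgc5 (SE 0.38, edgeR adjusted p = 0.210). Neither passed the threshold, which 19 genes (0.111%) did. In that model the litter difference comes from males, since no female group holds both litters. The differences were 0.69 for Pcdhac2, 0.13 for Pcdhgc3 and 0.11 for Pcdhgc4, each within 2 SE.

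Males of litters 1 and 3 allowed the genotypes to be compared within a litter, with 1 or 2 libraries on each side and no test. Pcdhgc4 was lower in E147A/+ in both litters, with log2 differences of -0.63 in litter 1 and -1.18 in litter 3. Pcdhgc3 was -0.05 in litter 1 and -0.59 in litter 3. Pcdhac2 and Pcdhgc5 changed direction between litters, with -0.66 in litter 1 and 0.74 in litter 3 for Pcdhac2 and -0.15 and 0.40 for Pcdhgc5. Pcdhac1 had 3 and 3 counts in the mutants and 5 in the +/+ culture of litter 1, against 31 and 17 in litter 3. With litter as a covariate the log2 fold change over both sexes was -0.72 for Pcdhgc4, -0.31 for Pcdhac2 and -0.20 for Pcdhgc3, and it turned to 0.60 for Pcdhgc5 and 0.25 for Pcdhac1. Female E147A/+ replicate 1 is the only mutant female that informs that fit.

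Counts assigned to the 129 or the Cast allele were deposited for the 4 female libraries. Around the locus only 2 of these libraries carried a Cast allele, which differs from the cross given in the labels. Over the 80 genes within 5 Mb on either side of the clustered protocadherins with 10 or more allelic counts in each of the 4 libraries, the Cast share was 48.0% in E147A/+ replicate 2 and 47.3% in +/+ replicate 1. It was 4.05% in E147A/+ replicate 1 and 4.42% in +/+ replicate 2. The members followed the same split, with Cast shares of 0% to 3.57% in the latter 2 libraries. The allelic comparison of genotypes thus rests on 1 library each, without replicates, and the intervals below are 95% Wilson intervals that cover counting error only.

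Pcdhgc3 was expressed from both alleles in both informative cultures. Its Cast share was 45.8% of 2389 allelic counts in E147A/+ replicate 2 (43.8% to 47.8%) and 45.1% of 2213 in +/+ replicate 1 (43.0% to 47.2%). These shares were close to each other and slightly below the summed share of the genes around the locus. Both lay within the quartiles of those genes, at 42.9% to 52.9% in E147A/+ replicate 2 and 41.6% to 51.3% in +/+ replicate 1. Pcdhac2 was also expressed from both alleles, with a Cast share of 45.3% of 95 counts in E147A/+ (35.6% to 55.3%) and 56.1% of 180 counts in +/+ (48.8% to 63.2%). Pcdhgc4 had 34.0% of 47 counts in E147A/+ (22.2% to 48.3%) and 52.1% of 73 in +/+ (40.8% to 63.1%). Pcdhgc5 had 61.4% of 57 counts in E147A/+ (48.4% to 72.9%) and 40.7% of 54 in +/+ (28.7% to 54.0%). The intervals of the 2 cultures overlap for Pcdhac2, Pcdhgc4 and Pcdhgc5, but overlap is no test, and with 1 culture per genotype the spread between cultures is not known. Whether these shares differ between genotypes was therefore not tested. Pcdhac1 had 8 and 14 allelic counts, too few for a share to be read, with counts from both alleles in both cultures.

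**Figure D5:**
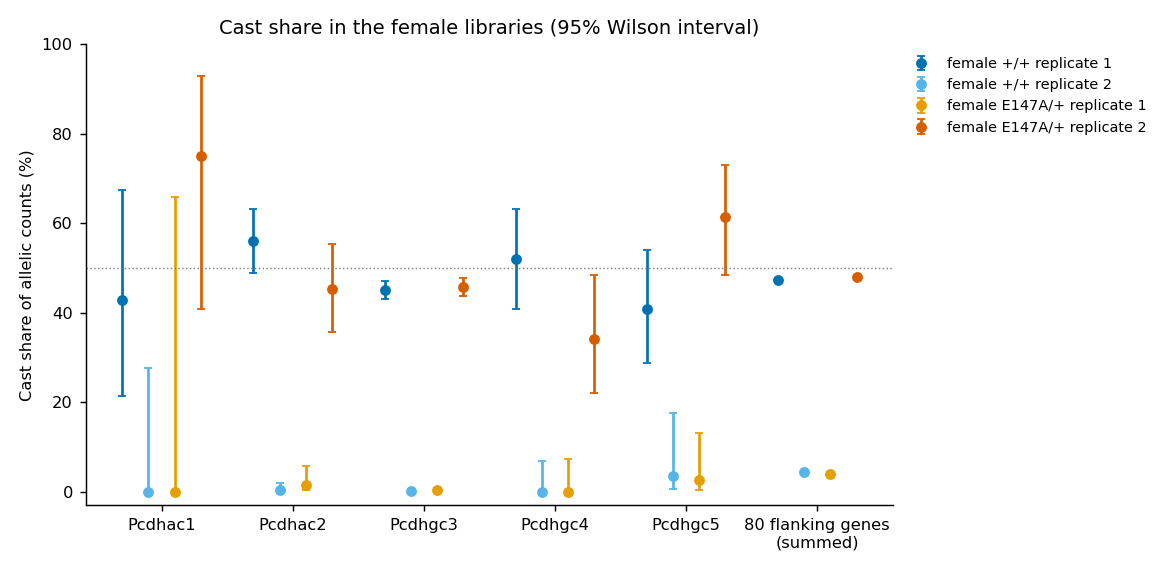
Cast share of the allelic counts of each C-type gene and of 80 flanking genes summed, in the 4 female libraries, with 95% Wilson intervals and a dotted line at equal expression. In +/+ replicate 1 and E147A/+ replicate 2 the flanking genes lie at 47.3% and 48.0% Cast and Pcdhgc3 at 45.1% and 45.8%, while in the other 2 libraries every member is at 0% to 3.57%.

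No genotype difference is read from the Cast allele over all 4 females, because 1 library of each genotype almost lacks it. Counts assigned to the 129 allele, present in all 4 females, were tested in edgeR, and 0 of 13175 genes passed (939 at unadjusted p under 0.05). The mother was a cross of 129 and C57, and how reads from a C57 allele were assigned is not given. The log2 fold change of the 129-assigned counts was -1.33 for Pcdhac2 (edgeR adjusted p = 0.760), -0.41 for Pcdhgc4 (0.960), -0.30 for Pcdhgc5 (0.987) and -0.08 for Pcdhgc3 (0.994). The direction for Pcdhgc5 and Pcdhgc3 turned when single libraries were left out, and a replicate block called some genes, as given in the last section. Pcdhac1 had 2 and 2 counts from the 129 allele in E147A/+, under the floor of 3 counts, and 8 and 10 in +/+, so no fold change is given. Female E147A/+ had 2.79 and 1.20 CPM of Pcdhac2 assigned to the 129 allele and female +/+ had 2.51 and 7.52 CPM, so the groups overlapped. Libraries with and without a Cast allele may differ in the number of copies that give such counts.

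No gene of the lists for regulators and partners of the clustered protocadherins passed the threshold over both sexes, where 0.0818% of all genes passed, 5.90% had an unadjusted p under 0.05 and 52% were below 0. Of 22 genes that regulate the locus or its chromatin, all were tested and 0 passed in edgeR (0 also at unadjusted p under 0.05), with 9 above and 13 below 0 and a median log2 fold change of -0.03. Ctcf, whose protein binds the promoters of the alternate isoforms, was at -0.21 (SE 0.16), and Stag1, a cohesin subunit, was lowest at -0.46 (SE 0.23). Lrif1, whose protein binds SMCHD1, was highest at 0.43 (SE 0.29). Of 14 genes for partners and processing enzymes 13 were tested and 0 passed, with 1 at unadjusted p under 0.05, 4 above and 9 below 0 and a median of -0.21. Axin1, whose protein binds that of Pcdhgc3, was at -0.20 (SE 0.12), and Adam10, a protease that cleaves protocadherins, was at -0.39 (SE 0.23). Among 3 other genes of the locus, Taf7, a subunit of a general transcription factor, was below all +/+ libraries of its sex in every E147A/+ library, as were 1.27% of all genes, with a log2 fold change of -0.68 (SE 0.18, edgeR adjusted p = 0.547). Diaph1 was at -0.18 (SE 0.18) and Slc25a2 at 0.08 (SE 0.54).

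The members did not share 1 pattern across the 10 libraries. Correlations of log2 CPM are given as descriptions, since the libraries share litters and groups. By Pearson's r the most alike pair was Pcdhac1 and Pcdhgc5 (Pearson's r 0.82, Spearman's rho 0.83), followed by Pcdhgc3 and Pcdhgc4 (r 0.75, rho 0.64) and Pcdhac1 and Pcdhac2 (r 0.72, rho 0.52). Pcdhac2 and Pcdhgc3 were the least alike by r (r 0.09, rho -0.08). Outside the locus, the 3 genes of 17053 with the highest r were Osbpl1a (0.98), Mrpl43 (0.98) and Rchy1 (0.96) for Pcdhac1, and Rabgap1 (0.95), G630022F23Rik (0.95) and Fez1 (0.95) for Pcdhac2. They were Gusb (0.96), Crkl (0.96) and Lins1 (0.95) for Pcdhgc3, Gm4950 (0.96), Resf1 (0.95) and Adgrb3 (0.93) for Pcdhgc4, and Afg1l (0.96), Itm2c (0.95) and Irgm1 (0.94) for Pcdhgc5. By r, no gene was among the 3 nearest of more than 1 member. Each r was picked as among the highest of 17053 over only 10 libraries, so high values arise by selection. The choice also depends on the measure, since by rho the 3 nearest to Pcdhgc3 were all other genes. G630022F23Rik and Gm4950 were at low mean levels of 0.244 and 0.370 CPM.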

How the data were processed

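Poly(A) RNA of 10 neural stem cell cultures was sequenced as 80 bp paired-end reads, per the labels' protocols. The table deposited by the authors holds raw counts of each gene in every library, and the females also have allelic counts (129 or Cast). The submitters' processing notes name Trim Galore 0.4.4, HISAT2 2.0.5, featureCounts, edgeR 3.24.0 and R 3.5.1 with builds GRCm38 and mm10. Their roles, the strand and overlap settings and how reads were assigned to alleles are not given in the sources used here.

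Genes were kept by filterByExpr, scaled by TMM and tested in 1 edgeR 4.0.16 quasi-likelihood fit (R 4.3.3) of the 10 libraries with a mean for each group, with 6 residual degrees of freedom and Benjamini-Hochberg adjustment over all 17110 genes at 0.05. Log2 CPM for correlations used a prior count of 2. Total counts are given with the groups. Depth limits Pcdhac1 (3 to 31 counts) and is ample for Pcdhgc3 (6431 to 15694). The floor was 3 counts. Intervals of shares are 95% Wilson intervals. The replicate numbers come from the titles and name different embryos. Deviations of same-numbered libraries correlated at -0.304 in females and at -0.238, 0.416 and 0.0341 in males, so the numbers were not taken as pairs. No replicate pair agreed within sampling noise (chi-square per gene 35.8 to 210.4).

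Alternatives were RLE scaling, DESeq2 1.42.0, limma-voom (limma 3.58.1) with quality weights, other filters, litter as a covariate, a replicate block, only the groups compared, and leaving out each library. Gene lengths came from GENCODE M21, whose coordinates matched the table for all 58 clustered protocadherin rows. All 5 members were named, with at most 3 genes per comparison family, at most 4 per pathway list, Smchd1, 3 flanking genes and the 3 genes most alike each member. Cell type markers named singly were chosen after their values were seen. The members and lists were chosen with earlier results of these data known. The methods were tested on simulated counts.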

Additional observations from a re-analysis of the deposited data

How the results depend on the processing

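No C-type gene passed an adjusted p of 0.05 under any alternative tried, and the lowest adjusted p was 0.169, for Pcdhac2 over both sexes. Pcdhgc4 and Pcdhac2 kept a negative log2 fold change in each of 19 alternatives over both sexes, at -0.91 to -0.50 and -1.12 to -0.30, as did Pcdhgc3 at -0.36 to -0.04.

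Directions turned with litter as a covariate. The log2 fold change became 0.25 for Pcdhac1 and 0.60 for Pcdhgc5 over both sexes, 0.68 and 1.10 in females, and 0.091 for Pcdhgc5 in males. The values in females, and with them those over both sexes, rest on E147A/+ replicate 1 as the only informative mutant female. The interaction became 0.86 for Pcdhac1 and 0.30 for Pcdhgc4. The difference between female and male +/+ became -0.50 for Pcdhac1, -0.13 for Pcdhgc4 and -0.14 for Pcdhgc5. With litters 1 and 3 alone, added after the data were seen, Pcdhac1 was 0.26 and Pcdhgc5 0.61. With limma-voom the interaction of Pcdhac1 was 0.49. The cause of these turns was not tested.

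Counts of genes past the threshold were 14 over both sexes, 2 in females, 4 in males, 0 for the interaction and 5 between female and male +/+. DESeq2 gave 113, 46, 48 and 2 for the first 4. Limma-voom gave 29 over both sexes and 9 in males. With no filter they were 33, 8 and 14. With 10 counts in every library, which leaves out Pcdhac1, they were 9 over both sexes and 0 between female and male +/+. With litter as a covariate they were 3, 0, 2 and 1. With litters 1 and 3 alone the count over both sexes was 0 (710 at unadjusted p under 0.05). With only the groups compared they were 1 in females, 1 in males and 3 between female and male +/+.

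The replicate block, which pairs same-numbered libraries, gave 5, 0 and 2 genes over both sexes, in females and in males. With the female numbers crossed, added after the data were seen, it gave 6 over both sexes and 0 in females. On allelic counts the block called 11 genes for the 129 allele and gave 0.21 for Pcdhgc3 on the Cast allele (0.23 crossed). Same-numbered females and male replicates 1 come from different litters, while male replicates 2 and 3 share a litter across the genotypes. For the sex difference no paired analysis was possible because sex and block coincide.

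Leaving out each library gave 2 to 12 genes over both sexes, 0 to 2 in females, 1 to 4 in males and 0 to 1 for the interaction. The lowest count over both sexes, 2, was without female E147A/+ replicate 2, and the count in males was 1 without male E147A/+ replicate 3. Log2 fold changes in females ranged from -0.41 to 0.19 for Pcdhgc3 and -0.57 to 0.32 for Pcdhgc5, in both cases positive only without +/+ replicate 1, and in males from -2.31 to 0.30 for Pcdhac1, lowest without E147A/+ replicate 3. The interaction ranged from -1.72 to 1.28 for Pcdhac1, -0.10 to 0.47 for Pcdhgc3, -0.38 to 0.40 for Pcdhgc4 and -0.20 to 0.80 for Pcdhgc5. The difference between female and male +/+ ranged from -0.046 to 0.79 for Pcdhac1, -0.22 to 0.36 for Pcdhgc3, -0.34 to 0.44 for Pcdhgc4 and -0.47 to 0.40 for Pcdhgc5.

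Since 1 library of each genotype almost lacks the Cast allele at the locus, differences on that allele over all 4 females say nothing of genotype. Leaving out each female library moved the difference in Cast share over -32.7 to 23.1 points for Pcdhac2, -22.2 to 23.1 for Pcdhgc3, -35.0 to 17.0 for Pcdhgc4 and -19.6 to 39.2 for Pcdhgc5. It moved log2 fold changes on the Cast allele over -5.03 to 4.19, -6.09 to 6.60, -7.52 to 5.97 and -3.79 to 3.87 in the same order, and on the 129 allele over -0.46 to 0.22 for Pcdhgc3 and -0.74 to 0.039 for Pcdhgc5. As a median over genes, the Cast share around the locus was 0.321% in E147A/+ replicate 1, 46.6% in +/+ replicate 1 and 0.250% in +/+ replicate 2. The summed share within 2 Mb was 48.7% in E147A/+ replicate 2. The allelic results rest on few counts and 1 culture per genotype, and Pcdhac1 rests on 3 to 31 counts.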
